A study of Mus musculus with 80 samples.

Results

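The 4 genes described here are Kng2, Lgr6 and Fam131c, together with Kng1, the paralog of Kng2. They are 4 of 32764 named genes counted in each of 80 RNA-seq libraries. Kng2, Lgr6 and Fam131c were selected on measured values, as large rises of UCP1 KO over dKO in inguinal white adipose tissue (iWAT). Kng1 was added for its kinship and not for its level. The values of Kng2, Lgr6 and Fam131c in the UCP1 KO and dKO libraries of iWAT are therefore given as a description, without a test.

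The libraries came from iWAT, brown adipose tissue (BAT), liver and muscle of male mice of 4 genotypes, with 5 libraries per tissue and genotype. The genotypes were WT, mice without FGF21 (FGF21 KO), mice without UCP1 (UCP1 KO) and mice without both (dKO). The sources spell the last genotype UCP1/FGF12 in places, and the methods of the study describe its breeding from a cross of UCP1 KO and FGF21 KO mice on a C57BL/6J background. The mutant alleles were homozygous, and the sources used here name no tissue-specific driver. Mice of all 4 genotypes, WT included, were raised at 30 °C, moved to room temperature at an age of 10 to 12 weeks, and fed a high-fat diet for 3 weeks. Food was withdrawn for 2 to 3 h before tissue collection. No label linked the tissues of 1 mouse, and nothing states that libraries of a group came from separate litters or cages.

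The depth of the libraries ran from 28691377 to 50380696 counted reads (median 38022853). No 2 libraries of a group had identical counts. The targeted genes were checked first. Fgf21 had 0 counts in all 5 dKO libraries of iWAT and at most 1 count in the FGF21 KO libraries. Ucp1 in BAT averaged 942 ± 299 CPM (read counts scaled to the effective library size) in UCP1 KO against 5805 ± 1608 CPM in WT (SD, n = 5 each), so the disrupted gene still gave reads, and in iWAT its reads were higher in UCP1 KO (379 ± 241 CPM) than in WT (7.54 ± 5.74 CPM). The 6 brown adipocyte markers summed to 5795 to 10431 CPM in BAT of WT, the 6 white adipocyte markers to 8363 to 19523 CPM in iWAT, the 10 hepatocyte markers to 109016 to 115112 CPM in liver and the 10 skeletal muscle markers to 129706 to 164821 CPM in muscle. The summed level of 8 lymph node markers in iWAT ranged from 8.30 to 1503 CPM over the 20 libraries, and that of the skeletal muscle markers in BAT from 82.2 to 9160 CPM.

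Kininogens are secreted proteins, known chiefly as products of hepatocytes. Kallikreins cut them to release bradykinin, a peptide that acts on the receptors Bdkrb1 and Bdkrb2 and is destroyed by enzymes such as the angiotensin-converting enzyme and carboxypeptidase N, while the rest of the molecule inhibits cysteine proteases. The mouse carries the paralogs Kng1 and Kng2. Lgr6 is a membrane receptor for R-spondins, which raise Wnt signalling by sparing the Wnt receptors from the ubiquitin ligases Znrf3 and Rnf43. It is best known as a marker of stem cells in skin. Fam131c is a member of a small family of proteins whose function is poorly described. UCP1, the uncoupling protein that makes brown fat thermogenic, also appears in iWAT when brown-like adipocytes form there, a process called browning.

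Kng2 lies on the minus strand of chromosome 16 (GRCm38 chr16:22985854-23029482) and Kng1 on the plus strand (chr16:23057865-23082078). A gap of 28.4 kb separates them, and they are transcribed away from each other. Lgr6 spans 122 kb of the minus strand of chromosome 1 (chr1:134983301-135105276), and Fam131c 15.96 kb of the plus strand of chromosome 4 (chr4:141368220-141384175). In the GENCODE annotation the exons cover 3250 bases of Kng1, 2734 of Kng2, 6851 of Lgr6 and 1433 of Fam131c. All 4 are protein-coding, and only Kng2 is overlapped by another annotated gene, the processed pseudogene Gm6493 on the same strand.

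The promoters of the 3 selected genes are shown because they were high in the same libraries. Each sequence runs from 250 bases before to 50 bases after the RefSeq start on GRCm38.p6, read 5′ to 3′ along the strand of the gene. The window is chr16:23029052-23029351 for Kng2, chr1:135105227-135105526 for Lgr6 and chr4:141367942-141368241 for Fam131c. Capitals mark matches on either strand to AGGTCA (a core site of nuclear receptors), TCAAGGTCA (the extended site of the estrogen-related receptors, which contains AGGTCA) or GGGCGG (the GC box).
Kng2: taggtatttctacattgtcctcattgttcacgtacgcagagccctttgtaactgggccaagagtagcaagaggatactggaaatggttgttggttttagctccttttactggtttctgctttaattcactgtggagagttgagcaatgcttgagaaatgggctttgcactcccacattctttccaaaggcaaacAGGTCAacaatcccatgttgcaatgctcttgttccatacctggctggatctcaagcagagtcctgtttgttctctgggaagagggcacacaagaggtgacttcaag
Lgr6: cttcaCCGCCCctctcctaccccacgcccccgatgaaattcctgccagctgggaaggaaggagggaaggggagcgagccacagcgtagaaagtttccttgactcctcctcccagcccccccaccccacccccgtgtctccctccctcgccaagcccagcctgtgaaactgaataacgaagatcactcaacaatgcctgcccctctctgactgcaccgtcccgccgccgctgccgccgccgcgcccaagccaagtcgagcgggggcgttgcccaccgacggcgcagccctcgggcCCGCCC
Fam131c: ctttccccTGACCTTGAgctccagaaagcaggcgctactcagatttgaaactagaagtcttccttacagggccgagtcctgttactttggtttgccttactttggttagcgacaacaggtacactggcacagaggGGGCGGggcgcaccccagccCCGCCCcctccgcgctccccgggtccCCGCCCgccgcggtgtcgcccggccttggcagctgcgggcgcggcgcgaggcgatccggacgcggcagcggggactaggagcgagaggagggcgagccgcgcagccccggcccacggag
The window of Kng2 held 1 AGGTCA, with its first letter at -56 from the start. The window of Fam131c held the reverse complement TGACCTTGA at -242, a match to the extended site, and 3 GC boxes. The window of Lgr6 held 2 GC boxes and no core site. Among the 32851 promoter windows of the RefSeq table, 16.3% held AGGTCA, 0.423% TCAAGGTCA and 35.7% GGGCGG. The letters of the cAMP response element TGACGTCA (1.79% of windows), its core TGACG (20.8%), the CCAAT box (37.4%) and TATAAA (13.6%) were not found in the 3 windows. G and C made up 45.3% of the bases for Kng2, 67.7% for Lgr6 and 68.3% for Fam131c, and the median of all windows was 52.7%. The promoter of Kng1 was not analysed here.

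In WT mice the 4 genes had different tissue patterns. Levels are CPM scaled within each tissue, and the tissues were compared in 1 edgeR fit of the 20 WT libraries, in which genes with an adjusted p under 0.01 were called. Most genes differ between tissues: the share of all tested genes called was 67.3% for liver against BAT, 74.9% for liver against iWAT, 73.8% for liver against muscle, 60.7% for BAT against iWAT, 64.1% for BAT against muscle and 74.4% for iWAT against muscle. Between 1 and 4 of the 4 genes were called in each of these comparisons. The median log2 difference of all genes was 0.23 for iWAT against muscle and at most 0.10 in size for the others.

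Kng1 was a liver gene. Its level in WT liver was 2061 ± 173 CPM (SD, n = 5), and the 5 libraries lay between 1901 and 2324 CPM. In WT iWAT, BAT and muscle it was 0.446 ± 0.227, 0.322 ± 0.139 and 0.300 ± 0.1001 CPM, with at most 25 counts in a library. These 3 low levels did not differ by the test (adjusted p between 0.274 and 0.657 in edgeR), and each was far under liver, for example by 13.07 ± 0.44 (SE, log2) in BAT (adjusted p = 1.05e-15).

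Kng2 was high in liver and in BAT. WT liver had 278, 312, 268, 280 and 297 CPM and WT BAT 153, 143, 89.3, 89.6 and 113 CPM. All liver libraries were above all BAT libraries, and the log2 difference was 1.75 ± 0.21 (SE, edgeR adjusted p = 3.72e-07; exact permutation p = 0.00794, the smallest that 5 against 5 can give). WT iWAT (0.369 ± 0.152 CPM) and muscle (0.207 ± 0.138 CPM) were low and did not differ by the test, which scales the tissues together (log2 difference of iWAT against muscle -0.18, 95% interval -0.99 to 0.62). BAT exceeded iWAT by 8.95 ± 0.31 on the log2 scale (adjusted p = 7.75e-15).

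Lgr6 was a BAT gene among these tissues. WT BAT libraries had 97.1, 110, 102, 77.6 and 99.6 CPM, WT muscle libraries 2.88, 2.85, 1.25, 1.09 and 0.505 CPM, and WT iWAT libraries 0.0831 to 0.162 CPM, which is 3 to 6 counts. The log2 difference was 5.47 ± 0.35 for BAT against muscle (edgeR adjusted p = 2.76e-11) and -4.79 ± 0.48 for iWAT against muscle (adjusted p = 1.97e-08). WT liver had 0 to 5 counts, and the difference between liver and iWAT (-0.13, 95% interval -2.15 to 1.89) was not detectable at this depth.

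Fam131c was low everywhere in WT. Liver had 1.45 ± 0.170 CPM and BAT 1.24 ± 0.612 CPM, a log2 difference of 0.68 (95% interval -0.14 to 1.49, edgeR adjusted p = 0.119). WT iWAT and muscle had at most 2 counts in a library. The BAT mean was 16.01-fold the level that 3 counts per library would give in iWAT and 16.7-fold that in muscle. For liver these values were 18.6-fold and 19.4-fold. Each tissue was scaled on its own here, so they are no strict lower bounds of the difference between tissues. Per kilobase of exon, the order in WT BAT was Kng2 (43.0 ± 10.8 CPM per kb), Lgr6 (14.2 ± 1.74), Fam131c (0.867 ± 0.427) and Kng1 (0.0989 ± 0.0427), and in WT liver Kng1 (634 ± 53.3 CPM per kb) stood before Kng2 (105 ± 6.36).

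**Figure D1:**
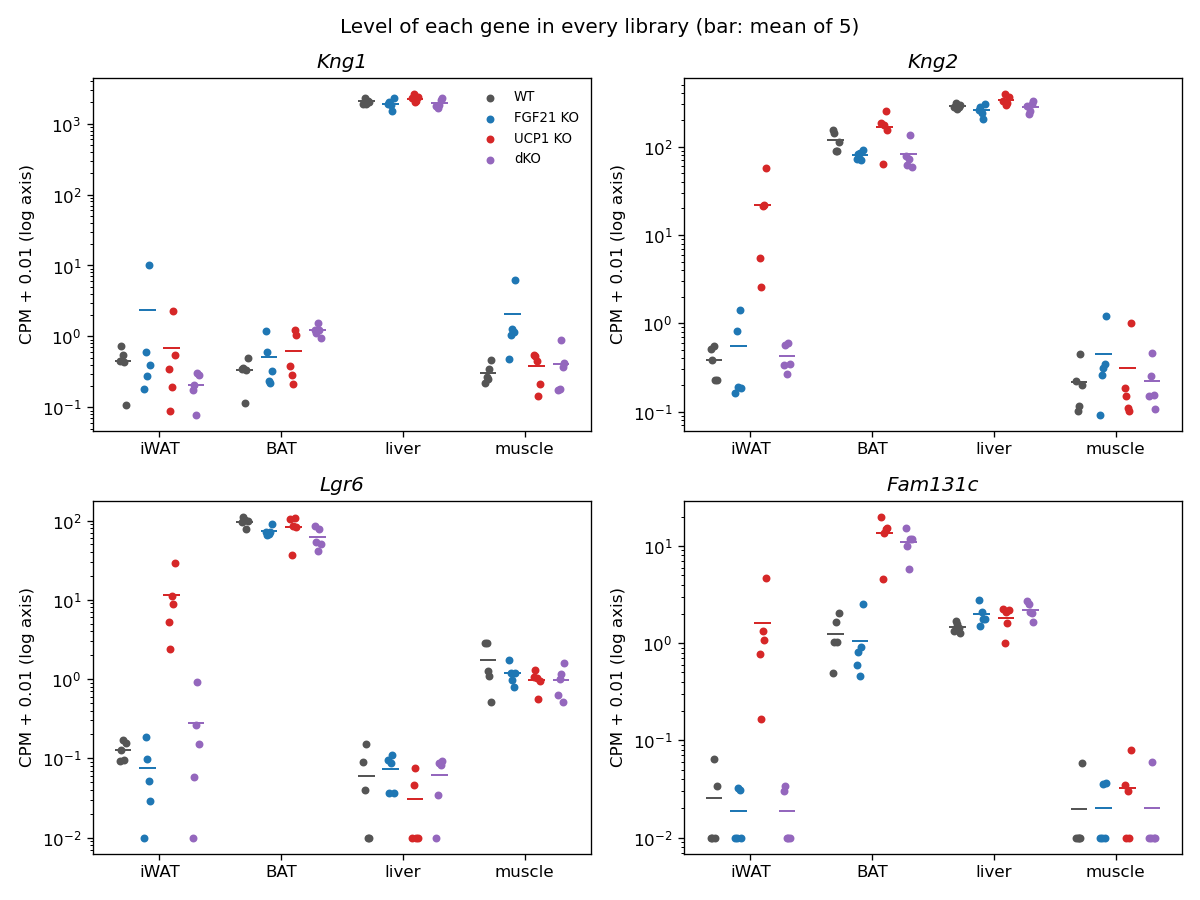
Level of Kng1, Kng2, Lgr6 and Fam131c in all 80 libraries. The vertical axis is CPM plus 0.01 on a log scale, the horizontal axis the tissue, colours are the genotypes, points are libraries and bars the mean of 5. Kng1 is high in liver alone, Kng2 in liver and BAT and Lgr6 in BAT, and the red points of iWAT (UCP1 KO) stand above the other iWAT points for all but Kng1.

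In iWAT the 3 selected genes were higher in the UCP1 KO libraries than in any library of the other 3 genotypes. Kng2 in UCP1 KO had 5.44, 2.56, 21.4, 22.1 and 56.6 CPM in replicates 1 to 5, which is 99 to 1563 counts. WT had 0.216 to 0.539 CPM, FGF21 KO 0.152 to 1.40 CPM and dKO 0.254 to 0.588 CPM, and none of these 15 libraries reached the lowest UCP1 KO library. The fitted log2 difference of UCP1 KO was 5.70 ± 0.84 (SE) against dKO and 5.87 ± 0.85 against WT.

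Lgr6 in UCP1 KO had 5.26, 2.37, 11.1, 8.86 and 29.3 CPM in iWAT. WT had 3 to 6 counts, FGF21 KO 0 to 6 counts and dKO 0, 2, 11, 37 and 5 counts in a library. The dKO group was thus the most spread of the 3 low groups, and its highest library (replicate 4, 0.906 CPM) remained under every UCP1 KO library. The same library had the highest score of the 8 epithelial markers among the 20 iWAT libraries (2.18), and dKO replicate 3, the next in Lgr6, had the next score (0.86), whereas the other 18 lay between -2.04 and -0.15. The part of epithelial RNA in the Lgr6 counts of dKO was not tested. The fitted log2 difference of UCP1 KO was 5.39 ± 0.96 against dKO and 6.55 ± 1.04 against WT.

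Fam131c in UCP1 KO had 25, 6, 36, 32 and 130 counts in iWAT, or 0.769, 0.155, 1.33, 1.08 and 4.71 CPM. The 15 libraries of the other genotypes had 0, 1 or 2 counts, so the gene passed the low-count filter of iWAT through the UCP1 KO libraries alone. The UCP1 KO mean of 1.61 ± 1.79 CPM was at least 22.3-fold higher than dKO and at least 20.7-fold higher than WT, against a floor of 3 counts per library. Its fitted log2 value depends on the prior count and is not given. In the fitted difference against dKO, which chose the genes, Kng2 and Lgr6 lay below Elovl3 (6.26), a fatty acid elongase of brown fat, and above Atp4b (5.15) and Arhgdig (4.92).

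Calls of the selected genes in iWAT of UCP1 KO were fixed by their choice, and nothing is read from them. The 3 genes were called for UCP1 KO against dKO, where 0.466% of 17380 tested genes were called, and for UCP1 KO against WT, where the share was 0.61%. Without dKO replicate 1, 2, 3 or 5 the count against dKO was 0, without WT replicate 1 or 2 the count against WT was 0, and without WT replicate 4 it was 1. Over all 20 leave-one-out fits against dKO the log2 difference lay between 4.96 and 5.99 for Kng2 and between 4.67 and 6.67 for Lgr6. For dKO against WT in iWAT, where 0.0173% of all genes were called, the selected genes had been chosen with their dKO values, and Kng1 was not called (log2 difference -1.15, 95% interval -3.42 to 1.12, edgeR adjusted p = 0.999).

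The 5 UCP1 KO libraries of iWAT differed widely among themselves. Replicate 2 was the lowest, replicate 1 the second lowest and replicate 5 the highest for Kng2, Lgr6 and Fam131c, and also for Ucp1 and Fgf21, whereas the order of replicates 3 and 4 varied between these genes. The highest library exceeded the lowest 22.2-fold for Kng2, 12.3-fold for Lgr6 and 30.4-fold for Fam131c. The summed level of the 6 brown adipocyte markers was 384 to 2637 CPM in UCP1 KO, 19.4 to 75.7 CPM in WT, 5.05 to 63.1 CPM in FGF21 KO and 18.3 to 122 CPM in dKO. In such bulk samples more cells of a type and more RNA per cell cannot be told apart. The lowest library, replicate 2, was also the single UCP1 KO library with a high lymph node score (7.03, against 0.44 to 0.91 in the other 4). With that score as a covariate the log2 difference against dKO was 5.27 for Kng2 and 5.13 for Lgr6. The skeletal muscle score of the UCP1 KO libraries ran from 2.14 to 10.6. With the muscle score as a covariate the difference was 5.88 for Kng2 and 5.59 for Lgr6.

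The iWAT level of UCP1 KO as a share of BAT depended on the scaling. With each tissue scaled on its own, the mean was 18.4% of the WT BAT level for Kng2, 11.7% for Lgr6 and 129% for Fam131c. With both tissues scaled together, a setting chosen after seeing the data, the shares were 11.9% (1.49% to 30.9% over the 5 libraries) for Kng2, 7.57% (1.67% to 19.3%) for Lgr6 and 83.6% (8.54% to 244%) for Fam131c. Against BAT of UCP1 KO they were then 8.36%, 8.82% and 7.58%. Per kilobase of exon, the iWAT level in UCP1 KO was 7.91 ± 7.87 CPM per kb for Kng2, 1.66 ± 1.54 for Lgr6 and 1.12 ± 1.25 for Fam131c.

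**Figure D2:**
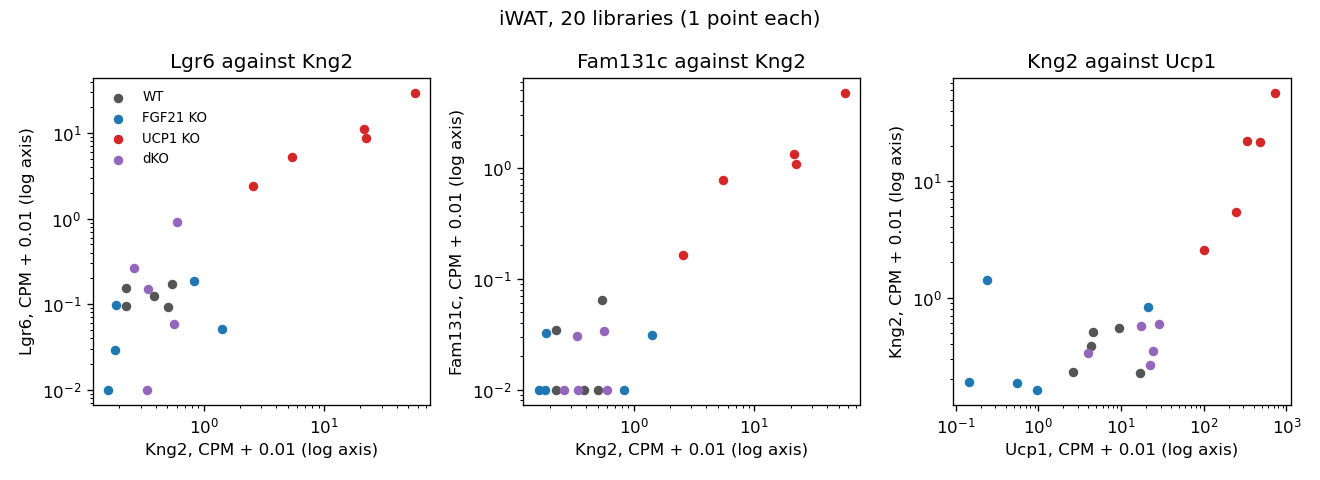
Levels of 2 genes against each other in the 20 iWAT libraries, 1 point per library, coloured by genotype. All axes are CPM plus 0.01 on a log scale. The 5 red points (UCP1 KO) run from 2.56 to 56.6 CPM of Kng2, with replicate 2 lowest and replicate 5 highest on every axis, and lie above the 15 others.

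Over the 20 iWAT libraries the correlation of log2 CPM (Pearson's r) was 0.922 between Kng2 and Lgr6, 0.950 between Kng2 and Fam131c and 0.916 between Lgr6 and Fam131c. The points share the split between UCP1 KO and the other genotypes, and over the 15 libraries without UCP1 KO the values were 0.26, 0.21 and -0.14. The genes most like Kng2 were Letmd1 (0.961), Acot2 (0.957), Cpn2 (0.952), Fam131c and Acox2 (0.947). Letmd1 is a mitochondrial protein of brown fat and Acot2 a mitochondrial acyl-CoA thioesterase. Those most like Lgr6 were Pank1 (0.974), Gpd2 (0.973), Ttc25, 2310069B03Rik and AK040737. Those most like Fam131c were Arhgdig (0.958), Letmd1, A530050N04Rik, Acot2 and Impa2. Over the 15 libraries without UCP1 KO these correlations were 0.21 to 0.81 for Kng2, 0.76 to 0.84 for Lgr6 and -0.40 to 0.25 for Fam131c. Fam131c had at most 2 counts in each of these 15 libraries. Its correlations there, also those with Kng2 and Lgr6, therefore cannot show or deny a likeness. The genes most like Kng1 were Gc (0.977), Ces3a, Serpina1c, Ahsg and Fga, genes known from liver, and its correlation with Kng2 was 0.28.

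Kng1 was not chosen by its values and could be tested in iWAT. UCP1 KO had 11, 3, 5, 68 and 15 counts and dKO 8, 8, 3, 12 and 10 counts. The libraries overlapped, and the log2 difference was 1.77 (95% interval -0.51 to 4.05, edgeR adjusted p = 0.497) against dKO and 0.62 (-1.57 to 2.81, adjusted p = 0.891) against WT. UCP1 KO replicate 4, the library with 68 counts, also had the highest hepatocyte score of its group (3.57 against 0.92 to 1.95), but not the highest summed level of these markers (1212 CPM, in a range of 598 to 3019).

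FGF21 KO against WT in iWAT was a comparison that the choice did not use. There edgeR called 0 of Kng1 and Kng2 (1 at an unadjusted p under 0.05, 0 by DESeq2), with 0.00575% of all genes called. Lgr6, with at most 6 counts in a library of either group, and Fam131c had too few counts there to be called. Kng2 was 0.544 ± 0.555 CPM in FGF21 KO (log2 difference 0.56, 95% interval -1.01 to 2.12), Lgr6 0.0651 ± 0.0700 CPM (-0.92, -3.09 to 1.26), and Fam131c had at most 2 counts in both groups. Kng1 had 8, 20, 12, 489 and 20 counts in FGF21 KO. Its log2 difference of 2.38 ± 1.05 (adjusted p = 0.27) turned to -0.34 without replicate 4, the library with 489 counts. That library also had the highest hepatocyte score of the 20 iWAT libraries (5.55, a mean of log2 values) and 230 CPM of albumin (Alb), whereas its summed level of the same 10 markers (1268 CPM) was within the range of the 20 libraries (342 to 3019 CPM).

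In BAT Fam131c passed the test for loss of UCP1, and Kng2 and Lgr6 did not. Fam131c was raised by loss of UCP1, whether FGF21 was present or not. WT libraries had 0.487, 1.02, 1.64, 1.01 and 2.06 CPM and UCP1 KO libraries 19.7, 4.55, 13.5, 14.98 and 15.2 CPM. All UCP1 KO libraries were above all WT libraries, a 10.9-fold difference (95% interval 5.50 to 21.5; log2 3.44 ± 0.46 SE; edgeR adjusted p = 2.18e-05; exact permutation p = 0.00794). FGF21 KO libraries had 0.593, 0.799, 0.452, 0.899 and 2.53 CPM and dKO libraries 15.1, 10.1, 5.82, 11.7 and 11.9 CPM. These did not overlap either, with a 10.4-fold difference (5.25 to 20.7; log2 3.38 ± 0.47; adjusted p = 5.59e-05; exact permutation p = 0.00794).

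Many genes move in BAT on loss of UCP1, and these counts are read against that. Fam131c was the single gene of the 4 called for UCP1 KO against WT, where 25.2% of 15729 genes were called, and for dKO against FGF21 KO, where 13.5% were. Compared directly, UCP1 KO and dKO differed in Fam131c by 0.31 on the log2 scale (95% interval -0.55 to 1.17, edgeR adjusted p = 0.793). The interaction, the effect of UCP1 loss with FGF21 minus that without it, was 0.06 ± 0.63 (-1.27 to 1.40, adjusted p = 0.998), and the interval still allows a difference of either sign beyond 2-fold.

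The skeletal muscle score of BAT moved with the genotype too, from 1.77 to 3.63 in WT, 1.87 to 5.23 in FGF21 KO, 2.57 to 9.49 in UCP1 KO and 3.12 to 8.56 in dKO. Fam131c had 0 to 3 counts in all 20 muscle libraries. With the score as a covariate the log2 difference was 3.54 for UCP1 KO against WT and 3.55 for dKO against FGF21 KO. The part of skeletal muscle RNA in the result was not tested in any other way. Across the 20 BAT libraries Fam131c correlated with Ucp1 at -0.85 and with Kng2 at 0.28, and most with Mal (0.959), Epn3 (0.958), Acaa1b (0.957), Cpne5 (0.956) and Acot12 (0.954). These points share the split by UCP1 loss.

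Kng2 in BAT was 118 ± 29.6 CPM in WT, 80.0 ± 8.91 CPM in FGF21 KO, 166 ± 68.1 CPM in UCP1 KO and 81.5 ± 31.3 CPM in dKO (SD, n = 5 each). UCP1 KO libraries had 185, 63.0, 178, 251 and 153 CPM and dKO libraries 78.2, 62.4, 72.8, 136 and 58.3 CPM, so 4 of 5 UCP1 KO libraries were above all dKO libraries and 1 was among the lowest. The log2 difference of 1.03 ± 0.28 (95% interval 0.44 to 1.62) was not called (edgeR adjusted p = 0.176; exact permutation p = 0.0476 before any correction; DESeq2 adjusted p = 0.0208). Against WT it was 0.50 (-0.09 to 1.08, adjusted p = 0.158). FGF21 KO was 0.56 lower than WT (log2 difference -0.56, -1.14 to 0.03, edgeR adjusted p = 0.601; exact permutation p = 0.0238 before any correction), and dKO against FGF21 KO was 0.03 (-0.56 to 0.61).

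Lgr6 in BAT was 97.2 ± 11.9 CPM in WT, 73.1 ± 9.97 CPM in FGF21 KO, 82.8 ± 28.1 CPM in UCP1 KO and 62.0 ± 19.0 CPM in dKO. The groups overlapped in every comparison. The log2 difference was -0.23 (95% interval -0.71 to 0.25) for UCP1 KO against WT, -0.24 (-0.72 to 0.24) for dKO against FGF21 KO, 0.42 (-0.06 to 0.90) for UCP1 KO against dKO and -0.41 (-0.89 to 0.07) for FGF21 KO against WT. For FGF21 KO against WT the exact permutation p was 0.0159 before any correction. UCP1 KO replicate 2, with the highest skeletal muscle score, was the lowest of its group for Lgr6 (36.3 CPM) as for Kng2 and Fam131c. Kng2 and Lgr6 correlated at 0.72 across the 20 BAT libraries.

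Kng1 stayed low in BAT, at 0.322 ± 0.139 CPM in WT, 0.505 ± 0.411 in FGF21 KO, 0.621 ± 0.470 in UCP1 KO and 1.21 ± 0.227 in dKO. Of its differences in the comparisons made here, dKO against FGF21 KO was the largest, and it was 1.21 ± 0.50 on the log2 scale (edgeR adjusted p = 0.0737; exact permutation p = 0.0238 before correction). The hepatocyte score was 2.04 to 2.55 in dKO and 0.40 to 2.59 in FGF21 KO. In BAT edgeR called 0 of the 4 genes for UCP1 KO against dKO, for FGF21 KO against WT and for the interaction. With an unadjusted edgeR p under 0.05 there were 1, 0 and 0 of them. Of all genes edgeR called 0.0636%, 0% and 0%, with 2035, 1345 and 845 at an unadjusted p under 0.05 and 56, 30 and 1 called by DESeq2. DESeq2 called 0 of the 4 in all 3.

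**Figure D3:**
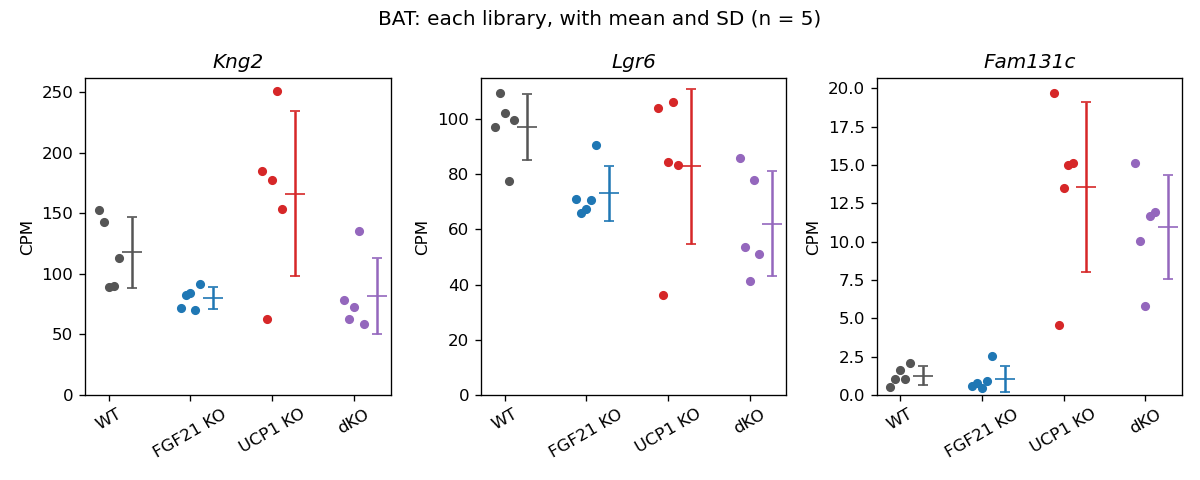
Kng2, Lgr6 and Fam131c in BAT by genotype, in CPM on a linear axis from 0. Points are the 5 libraries, and the bar beside them is the mean with its SD. Fam131c is separated by loss of UCP1 (4.55 CPM or more against 2.53 or less), whereas the groups of Kng2 and Lgr6 overlap.

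In liver no member was called by genotype. Kng1 averaged 1917 to 2261 CPM and Kng2 257 to 339 CPM over the 4 genotypes. Kng2 was highest in UCP1 KO (294 to 390 CPM), with a log2 difference of 0.24 (95% interval 0.01 to 0.47, edgeR adjusted p = 0.454) against WT and 0.28 (0.04 to 0.51, adjusted p = 0.579) against dKO. Fam131c was 1.98 ± 0.501 CPM in FGF21 KO and 1.45 ± 0.170 CPM in WT (0.45, 0.01 to 0.89, adjusted p = 0.644). Lgr6 had 0 to 5 counts and was not tested. Of the 3 genes tested, 0 were called by edgeR and 0 by DESeq2 for UCP1 KO against WT, UCP1 KO against dKO and FGF21 KO against WT (1 at an unadjusted p under 0.05 in each), where 0.0694%, 0.00694% and 0.229% of all genes were called.

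In muscle Lgr6 averaged 1.72 ± 1.09 CPM in WT, 1.17 ± 0.357 in FGF21 KO, 0.969 ± 0.274 in UCP1 KO and 0.964 ± 0.431 in dKO, and the groups overlapped (UCP1 KO against WT -0.82, 95% interval -1.64 to -0.00, edgeR adjusted p = 0.503). Fam131c had at most 3 counts and was not tested. Kng2 had 4 to 18 counts in 18 of the 20 libraries, and 46 and 43 counts in FGF21 KO replicate 5 and UCP1 KO replicate 5. These had 21.7 and 10.7 CPM of Ucp1, and FGF21 KO replicate 5 also 202 CPM of albumin. The muscle library with the most Ucp1, WT replicate 4 (28.5 CPM), had 18 counts of Kng2.

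Kng1 in muscle was 8, 11, 9, 14 and 19 counts in WT and 23, 42, 50, 41 and 237 counts in FGF21 KO. The groups did not overlap (log2 difference 2.73 ± 0.61, exact permutation p = 0.00794), but the edgeR adjusted p of 0.0346 was above the threshold, whereas DESeq2 called it (2.75, adjusted p = 0.000611). Without replicate 5 of FGF21 KO the difference was 1.68 (edgeR adjusted p = 0.0579). The hepatocyte markers moved along: their summed level was 50.05 to 381 CPM in FGF21 KO and 20.5 to 130 CPM in WT (scores 0.90 to 4.39 and -0.13 to 1.21), with 0 of 10 markers at 0 in these libraries, and replicate 5 had 202 CPM of albumin. Their part in the result was not tested. By edgeR, 0 of 3 tested genes were called for UCP1 KO against WT (1 at an unadjusted p under 0.05), UCP1 KO against dKO (0) and FGF21 KO against WT (1), where 0.0265%, 0% and 0.00662% of all genes were called. By DESeq2 the counts of members were 0, 0 and 1, and for FGF21 KO against WT DESeq2 called 192 of all 15114 genes, and edgeR 0 to 53 when 1 library was left out. Of all genes, 1774 had an unadjusted p under 0.05 for UCP1 KO against dKO in muscle, and DESeq2 called 20.

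**Figure D4:**
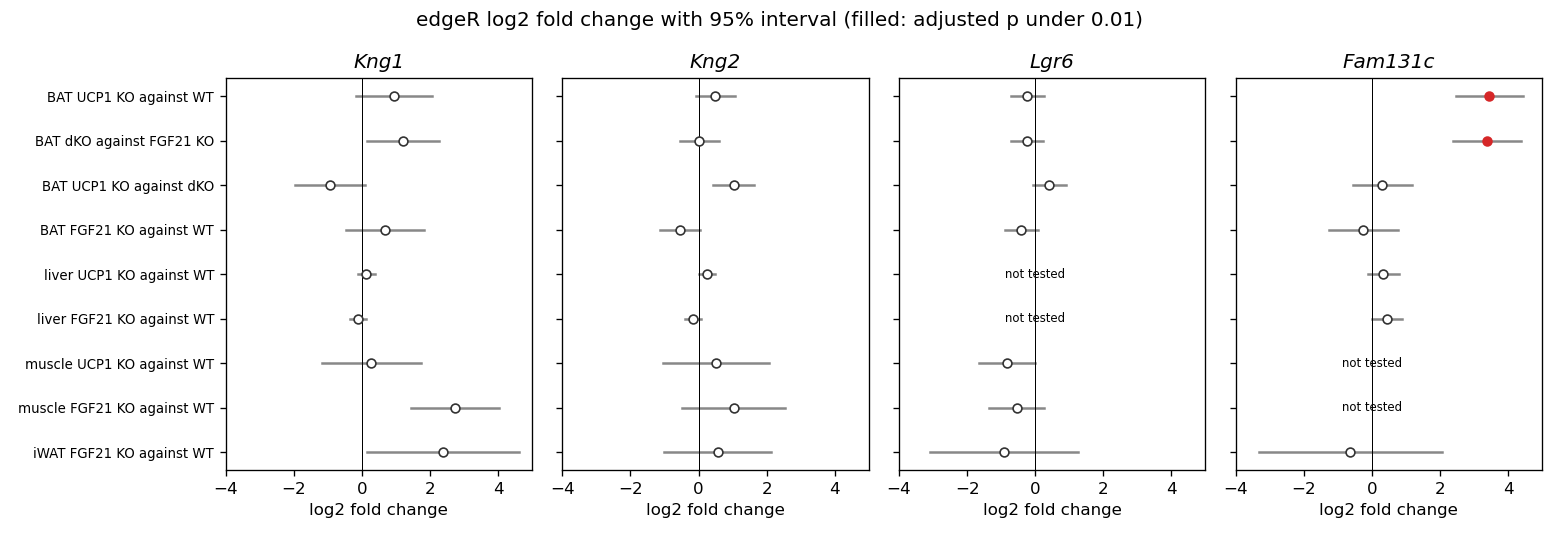
The edgeR log2 fold change of each gene (horizontal axis) with its 95% interval in 9 comparisons that did not choose the genes (vertical axis). Filled points have an adjusted p under 0.01. The 2 filled points are Fam131c in BAT, at 3.44 and 3.38.

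The share of Kng2 in the summed counts of Kng1 and Kng2 did not overlap between liver and BAT, and iWAT and muscle spread between them. It was 11.4% to 14.1% in the 20 liver libraries and 97.9% to 99.9% in the 20 BAT libraries. In iWAT it was 90.6% to 99.1% in UCP1 KO, 33.3% to 69.2% in WT and 54.5% to 78.6% in dKO, where both genes had few counts. FGF21 KO replicate 4 of iWAT, with its 489 counts of Kng1, had a share of 12.1% (exact 95% interval 9.46% to 15.05%, counting error only), a value within the range of liver. In muscle of FGF21 KO the share was 14.8% to 22.6%, and UCP1 KO replicate 5 of muscle stood at 82.7% (69.7% to 91.8%).

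The paralogs share sequence. Of the windows of 100 bases along the longest coding transcript of Kng2 (2294 bases), 5.69% occur without a mismatch in a coding transcript of Kng1, and of windows of 50 bases 18.2% do. Reads from such windows can be assigned to either gene or to none, so the share of Kng2 is uncertain by an amount not measured here. The ratio of Kng1 to Kng2 counts was at most 0.0214 in every BAT library and at least 6.07 in every liver library.

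**Figure D5:**
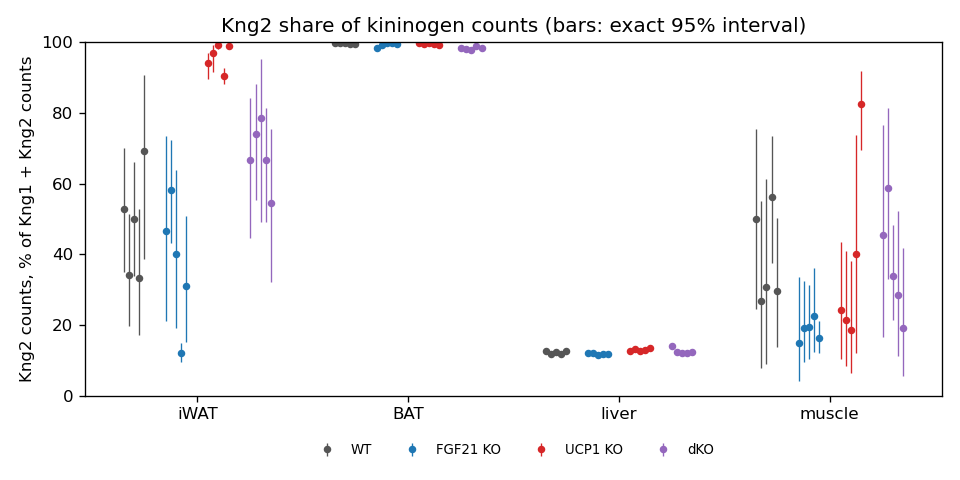
Share of Kng2 in the counts of both kininogens (vertical axis, in percent) in each of the 80 libraries, by tissue and genotype. Bars are exact 95% intervals and cover counting error only. BAT libraries lie at 97.9% or more, liver libraries at 14.1% or less, and iWAT libraries of UCP1 KO at 90.6% or more.

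The other genes of the kinin system were taken from a list. Of 24 genes listed beside the kininogens, all were tested in iWAT and 0 were called for UCP1 KO against dKO by edgeR, with 1 at an unadjusted p under 0.05 and 1, Cpn2, called by DESeq2 (list median log2 difference 0.03, all genes -0.04). Of all 17380 genes edgeR called 0.466% in this comparison (81, against 535 by DESeq2) and 0.61% against WT (106 and 597), and the counts of the lists and neighbours in iWAT are read beside these. Cpn2 is the regulatory subunit of carboxypeptidase N, an enzyme that trims kinins, and had 7.45 ± 5.49 CPM in UCP1 KO and 0.360 ± 0.137 CPM in dKO (4.36 ± 0.88, adjusted p = 0.0158). Against WT, Cpn2 alone rose (4.84 ± 0.91, adjusted p = 0.00809; list median -0.04, all genes -0.03). The kallikreins and receptors stayed low: plasma kallikrein Klkb1 had 0.348 ± 0.199 CPM, the tissue kallikrein Klk1 0.638 ± 1.13, Bdkrb1 0.0423 ± 0.0785 and Bdkrb2 0.364 ± 0.152 CPM in UCP1 KO.

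In BAT 18 of the 24 kinin genes were tested. For UCP1 KO against WT 2 rose, the peptidases Prcp (0.51 ± 0.12, edgeR adjusted p = 0.00253) and Prep (0.35 ± 0.10, adjusted p = 0.00827), and 2 fell, Cpn2 (by 1.08 ± 0.16 in log2 units, from 52.8 ± 12.7 to 24.96 ± 3.76 CPM, adjusted p = 7.1e-05) and the endothelial nitric oxide synthase Nos3 (by 0.40 ± 0.12, adjusted p = 0.00996). These 4 of 18 (9 at an unadjusted p under 0.05, 4 by DESeq2) stand beside 25.2% of all genes called. The list median was 0.14 and that of all genes 0.01. For dKO against FGF21 KO, where 13.5% of all genes were called, edgeR called Cpn2 alone, which fell by 0.82 ± 0.16 (adjusted p = 0.00138; 5 of the 18 at an unadjusted p under 0.05, and 2, Cpn2 and Prcp, by DESeq2). Cpn2 thus rose in iWAT against WT and fell in BAT in the same genotype. In WT the proteases that open the kinin pathway were liver genes: Klkb1 had 226 ± 37.3 CPM in liver and 0.0961 ± 0.0440 in BAT, and F12, the coagulation factor that activates it, 355 ± 23.4 and 0.113 ± 0.0759 CPM.

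Of 31 genes listed around R-spondin and LGR signalling, 28 were tested in iWAT, and 0 were called by edgeR for UCP1 KO against dKO (3 at an unadjusted p under 0.05; 1 by DESeq2, the Wnt antagonist Sfrp5; median -0.10, all genes -0.04) or against WT (3 and 0; median -0.36, all genes -0.03). Lgr4, the broadly used receptor of the family, had 26.3 ± 7.88 CPM in UCP1 KO and 36.6 ± 17.6 CPM in dKO (-0.47, adjusted p = 0.648), and Lgr5, known from intestinal stem cells, 0.450 ± 0.346 and 0.546 ± 0.627 CPM. The ligands Rspo1 (1.37 ± 0.708 CPM in UCP1 KO), Rspo2 (0.348 ± 0.212) and Rspo3 (0.747 ± 0.327) were low. In BAT 26 were tested, and for UCP1 KO against WT the Wnt receptor Fzd8 (by 0.49 ± 0.13, adjusted p = 0.00653) and β-catenin, Ctnnb1 (by 0.21 ± 0.06, adjusted p = 0.00511), fell, with a list median of -0.11 (10 of the 26 at an unadjusted p under 0.05, 3 by DESeq2, 25.2% of all genes called). For dKO against FGF21 KO the co-receptor Lrp6 fell by 0.58 ± 0.12 (adjusted p = 0.00152) and Dkk3 rose by 0.84 ± 0.17 (adjusted p = 0.0017), where 7 of the 26 had an unadjusted p under 0.05 and DESeq2 called 5, beside 13.5% of all genes. The Wnt target Axin2 was not called (-0.27 ± 0.22 for UCP1 KO against WT, adjusted p = 0.34). For UCP1 KO against dKO in BAT edgeR and DESeq2 called 0 of the 18 kinin genes (1 at an unadjusted p under 0.05) and 0 of the 26 R-spondin and LGR genes (2).

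The 2 relatives of Fam131c were not called by genotype. Fam131a and Fam131b were tested in both fat depots, and edgeR and DESeq2 called 0 for UCP1 KO against dKO or WT in iWAT (0 and 1 at an unadjusted p under 0.05) and 0 for either loss of UCP1 in BAT (0 and 0 at an unadjusted p under 0.05, beside 25.2% and 13.5% of all genes called). In BAT of UCP1 KO Fam131a had 3.09 ± 1.72 CPM against 2.01 ± 0.370 in WT (0.62, adjusted p = 0.126). Both were lower in BAT than in iWAT of WT (-0.91 ± 0.23 and -2.93 ± 0.40, edgeR adjusted p = 0.00153 and 2.46e-06), where Fam131c was higher in BAT. Of 5 tested genes of the cystatin superfamily, to which the inhibitory domains of kininogens belong, edgeR and DESeq2 called 0 in iWAT for UCP1 KO against dKO or WT (0 at an unadjusted p under 0.05 in both). In BAT edgeR called 1, the secreted liver protein Fetub, for dKO against FGF21 KO (0.99 ± 0.23, adjusted p = 0.00408; 13.5% of all genes called), where 4 of the 5 had an unadjusted p under 0.05 and DESeq2 called 3, Cst3, Cst6 and Fetub. It called 0 for UCP1 KO against WT (2 at an unadjusted p under 0.05, 0 by DESeq2, beside 25.2% of all genes called).

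Among 30 genes known from brown and beige fat, 29 were tested in iWAT, and edgeR called 9 higher and 0 lower for UCP1 KO against dKO (list median 2.39; 0.466% of all genes called), and 13 higher and 1 lower against WT (2.94; 0.61%). DESeq2 called 21 and 22 of the 29, Ucp1 among them in both, and 23 had an unadjusted p under 0.05 in each. The 9 and the 21 called against dKO include Fgf21, the gene deleted in dKO, so that call was fixed by the genotype. The list was fixed with earlier results of these libraries known, so it is no independent evidence of direction. Letmd1 had 245 ± 135 CPM in UCP1 KO and 52.6 ± 7.74 CPM in dKO (2.22 ± 0.28, edgeR adjusted p = 0.00129), Acot2 89.6 ± 88.5 and 10.9 ± 2.42 CPM (3.04 ± 0.49, adjusted p = 0.00394), and Ucp1, with 379 ± 241 and 19.5 ± 9.63 CPM, was not called by edgeR (4.28 ± 1.15, adjusted p = 0.0576). In BAT of UCP1 KO against WT 5 of 28 rose and 6 fell by edgeR (16 at an unadjusted p under 0.05, 12 by DESeq2, 25.2% of all genes called). The 6 that fell include Ucp1, the gene disrupted in UCP1 KO. Elovl3 (3.31 ± 0.41, adjusted p = 1.03e-05) and Acot2 (2.399 ± 0.30, adjusted p = 1.18e-05) rose there like Fam131c, and Letmd1 did not (-0.01 ± 0.11, adjusted p = 0.954).

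The genomic neighbours of the 4 genes were also compared. The 3 nearest tested genes on each side gave 18 neighbours that are not members. In iWAT edgeR called 0 of them for UCP1 KO against dKO (1 at an unadjusted p under 0.05, 0 by DESeq2) and 0 against WT (2 and 1), and against dKO their log2 differences ran from -1.82 to 2.52 with a median of -0.15. The highest was Hrg, a liver plasma protein 24.2 kb from Kng2 (2.52 ± 1.21, adjusted p = 0.358), and Fetub and Ahsg of the same cluster had 1.51 and 1.48. In BAT 2 of 16 tested neighbours were called for UCP1 KO against WT, Ube2t (1.31 ± 0.29, adjusted p = 0.00174), 9.14 kb from Lgr6, and Ptpn7 (1.62 ± 0.30, adjusted p = 0.000374), 27.4 kb from it, whereas Lgr6 itself was not. Of the 16, 9 had an unadjusted p under 0.05 and DESeq2 called 4, beside 25.2% of all genes called. For dKO against FGF21 KO Fetub, 46.1 kb from Kng2, rose, and Eif4a2, a translation initiation factor 25.4 kb from Kng1, fell by 0.45 ± 0.12 (adjusted p = 0.00797). These were 2 of 16 (8 at an unadjusted p under 0.05, 3 by DESeq2), beside 13.5% of all genes. By edgeR 0 neighbours of Fam131c were called. Arhgef19, a guanine nucleotide exchange factor 110.7 kb away, had 2.18 ± 0.56 in iWAT of UCP1 KO against WT (edgeR adjusted p = 0.0455, called by DESeq2) and 1.61 ± 0.55 against dKO (adjusted p = 0.14). Hspb7, a small heat shock protein of heart and skeletal muscle 36.6 kb away, had 4.16 ± 1.35 in BAT of UCP1 KO against WT (adjusted p = 0.0196), and DESeq2 called it there and for dKO against FGF21 KO.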

How the data were processed

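RNA sequencing libraries (poly(A)-selected, strand-specific, 100-base paired-end reads) of 4 tissues were analysed. Per the labels and the methods of the study, STAR was used for alignment to mm10 and HTSeq for counting. The authors deposited whole-number read counts per gene without normalization. The strand option and the treatment of reads with several matches are not given in the sources used here. Of 32765 rows, 1 without a gene name was left out (at most 3.42e-05% of a library).

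Within each tissue, the filter of the study was applied (highest count over 15, total over 75, zeros in 10 libraries at most). TMM factors and the quasi-likelihood test of edgeR were used (R 4.3.3 with edgeR 4.0.16) with 1 mean per genotype, and P-values were adjusted over all genes of the tissue (Benjamini-Hochberg, called under 0.01). WT libraries of the 4 tissues were fitted together. CPM are per tissue, log2 CPM has a prior count of 2, intervals are 95%, and standard errors follow from the F statistic. The exact permutation test (two-sided) was run on log2 CPM. A score averages log2(CPM + 0.1) over a marker list. The code was tested on simulated data. DESeq2 (version 1.42.0), which the study used, RLE factors, no filter, an adjusted p under 0.05, marker scores as covariates and leaving out each library were tried. Gene positions and exons are from GENCODE, promoters from RefSeq (GRCm38.p6, 3 of 4 genes matched). The methods of the study give 5 mice per genotype, and the labels do not name the mouse of a library. Replicate numbers were given here in sample order and link no tissues or mice. The genes and lists were chosen with earlier results of these data known. The genes named are the 4 members, called genes of the fixed lists and the genes they turn on, the 5 most correlated genes, the 3 nearest tested genes on each side and those ranked next to the members.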

Additional observations from a re-analysis of the deposited data

Results flagged for a closer look

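In each tissue where a gene was tested, the highest and lowest of the 5 libraries of a group were compared with the rest, and a library was named when its gap to the nearest other, over the range of the group, passed the 95% critical value of Dixon. Of 56 groups 10 were named, all 10 for the highest library of the group. For normally distributed values chance names about 1 in 20 groups. That rate need not hold for CPM on a linear scale and at low counts, and groups of different genes share libraries. The 10 are therefore not read as an excess over chance. In iWAT these were UCP1 KO replicate 5 for Fam131c (4.71 CPM, next 1.33), FGF21 KO replicate 4 for Kng1 (10.2 CPM, next 0.584), UCP1 KO replicate 4 for Kng1 (2.29 CPM, next 0.544) and dKO replicate 4 for Lgr6 (0.906 CPM, next 0.254). In BAT they were FGF21 KO replicate 5 for Fam131c (2.53 CPM, next 0.899) and for Lgr6 (90.5 CPM, next 71.0), and dKO replicate 4 for Kng2 (136 CPM, next 78.2). In muscle they were FGF21 KO replicate 5 for Kng1 (6.22 CPM, next 1.26) and Kng2 (1.21 CPM, next 0.340), and UCP1 KO replicate 5 for Kng2 (0.988 CPM, next 0.173). Under the same genotype contrast, groups without overlap in 2 tissues were found for Fam131c alone, in UCP1 KO against WT of iWAT and BAT. It was higher in UCP1 KO in both. Its UCP1 KO values in iWAT chose it, so nothing is read from the lack of opposite directions.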

How the results depend on the processing

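No paired analysis was possible because the labels give no replicate numbers, and those used here only name libraries in the order of the samples. The counts of members called were recomputed under 517 alternatives and 508 stayed within 1.5 times the value given. Many of these counts were 0 and stayed 0. For UCP1 KO against dKO in iWAT leaving out 1 library gave 0 to 3 calls, and for UCP1 KO against WT 0 to 3. For muscle of FGF21 KO against WT, DESeq2 and an adjusted p under 0.05 each gave 1 call in place of 0. Of 27 single-gene differences with an unadjusted p under 0.05 that did not choose the genes, 650 of 653 alternatives kept direction and call, the others being Kng1 in muscle of FGF21 KO under those settings and the reversal given below. The 27 include the differences between WT tissues. Of the genotype differences only those of Fam131c in BAT were called, so for the rest a kept call means that none was made. Kng1 in iWAT of FGF21 KO against WT turned from 2.38 to -0.34 on the log2 scale without FGF21 KO replicate 4, the library with 489 counts, and all leave-one-out fits lay between -0.34 and 2.68. In the comparison that chose the genes, where calls are a description, Lgr6 in iWAT of UCP1 KO against dKO lost its call in 15 of 20 leave-one-out fits (4.67 to 6.67 on the log2 scale). Fam131c in BAT kept its call and direction in every alternative run, at 3.24 to 3.71 for UCP1 KO against WT and 3.19 to 4.0001 for dKO against FGF21 KO.

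The share of all genes called is less stable. For UCP1 KO against dKO in iWAT edgeR called 81 genes and DESeq2 535, and the lymph node score as a covariate gave 743; for UCP1 KO against WT these were 106, 597 and 818. Leaving out 1 library moved the 81 by over 1.5 times in 15 of 20 fits, from 13 (without dKO replicate 2) to 371 (without UCP1 KO replicate 2), and the 106 in 10 of 20, from 16 (without WT replicate 1) to 360 (without UCP1 KO replicate 2). In liver the 10 of UCP1 KO against WT moved to between 1 and 46 (112 by DESeq2). The 33 of FGF21 KO against WT moved to between 1 and 48 (55 by DESeq2). In BAT the 10 of UCP1 KO against dKO moved to between 1 and 32. At 28691377 reads or more per library, Fam131c in iWAT outside UCP1 KO and in muscle was at or near the floor. So was Lgr6 in liver and in iWAT of WT and FGF21 KO. Differences among those groups were not detectable.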
